A study of Mus musculus with 5 samples.

Results

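The Hoxb cluster of the mouse was examined for H3K27me3, the repressive histone mark laid down by Polycomb repressive complexes, in dermal fibroblasts of the embryonic skin. Its members were the 10 genes Hoxb1 to Hoxb9 and Hoxb13, of 55450 annotated genes, taken by name and position on the chromosome. The stretch analysed ran from the first base of Hoxb13 to the last base of Hoxb1 with 10 kb added on each side, chr11:96184316-96378256 in GRCm38, which is 193.9 kb. All 10 genes are transcribed left to right along the chromosome, in the order Hoxb13, Hoxb9, Hoxb8, Hoxb7, Hoxb6, Hoxb5, Hoxb4, Hoxb3, Hoxb2 and Hoxb1.

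Hox genes encode homeodomain transcription factors that give cells their position along the body axis. Within a cluster they are arranged in the order of the body levels at which they are used, with the anterior genes (Hoxb1 and its neighbours) at the 3′ end and the posterior genes (Hoxb13, Hoxb9) at the 5′ end. Polycomb complexes hold the unused part of a cluster under broad domains of H3K27me3, and dermal fibroblasts are known to keep a positional Hox code.

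The 4 H3K27me3 libraries came from cultured dermal fibroblasts of wild-type skin, with 2 replicates at each of E14.5 and E18.5, the names that the study uses for the stages given as E14 and E17 in the labels. The mice were of C57BL/6 background, and neither a treatment nor a transgene is given for these libraries. Expansion in culture is described in the study's methods, so the values belong to cultured cells, and whether the 2 replicates of a stage came from separate animals or litters is not given in the sources used here. An input library of both stages was not analysed here. Each library was available as its own list of broad peaks, without read counts, so its depth is unknown, and a base was taken as covered where a peak of that library lay over it.

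The labelled cell type could be checked only by the absence of the mark. Absence by itself says little, since among 55450 annotated genes only 9083 were marked within 3000 bp of a start site in any library. Twist1, Twist2 and Prrx1, regulators that dermal mesenchyme uses, were free of peaks in the 3000 bp either side of their start sites in all 4 libraries, whereas Sox10, Pax6, Neurog1, Grhl2 and Ovol1, regulators of neural crest, neural and epithelial cells, carried peaks there in each of them. The remaining pair went the other way. Tbx15, a regulator of dermal mesenchyme, was marked over 2193 and 267 bp in the E14.5 libraries and over 0 bp in both E18.5 libraries, and Trp63, the master regulator of stratified epithelium, was unmarked throughout.

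At E14.5 the Hoxb cluster lay under a nearly continuous domain in the first replicate and under a more broken one in the second, and at E18.5 it was reduced to both ends and a middle group of genes. Peaks covered 180.2 and 122.9 kb of the stretch in the E14.5 libraries and 78.08 and 70.79 kb in the E18.5 libraries. As shares these were 92.9%, 63.4%, 40.3% and 36.5%. Both E18.5 libraries lay below both E14.5 libraries, but the replicates at E14.5 were 57.3 kb apart, against 7.29 kb at E18.5. The mean covered length was 151557 ± 40492 bp at E14.5 and 74435 ± 5152 bp at E18.5 (SD, n = 2 each), 50.9% lower at E18.5. An exact permutation test, two-sided, gave p = 0.33, the smallest p that 2 libraries against 2 can give, so no comparison of this design can pass 0.05.

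The lower covered length was shared with the rest of the genome. The total length covered by each list was 52804 and 32078 kb in the E14.5 lists and 19996 and 14337 kb in the E18.5 lists, 59.6% lower in the mean. The Hoxb stretch held 0.341% and 0.383% of the covered length of the E14.5 lists, and 0.390% and 0.494% of that of the E18.5 lists (22.1% higher in the mean, exact permutation test, two-sided, p = 0.33). That share turned lower at E18.5 where the lists were made equal in number of peaks (2.34% lower) or in covered length (42.9% lower), so the direction of the share was not stable.

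**Figure D1:**
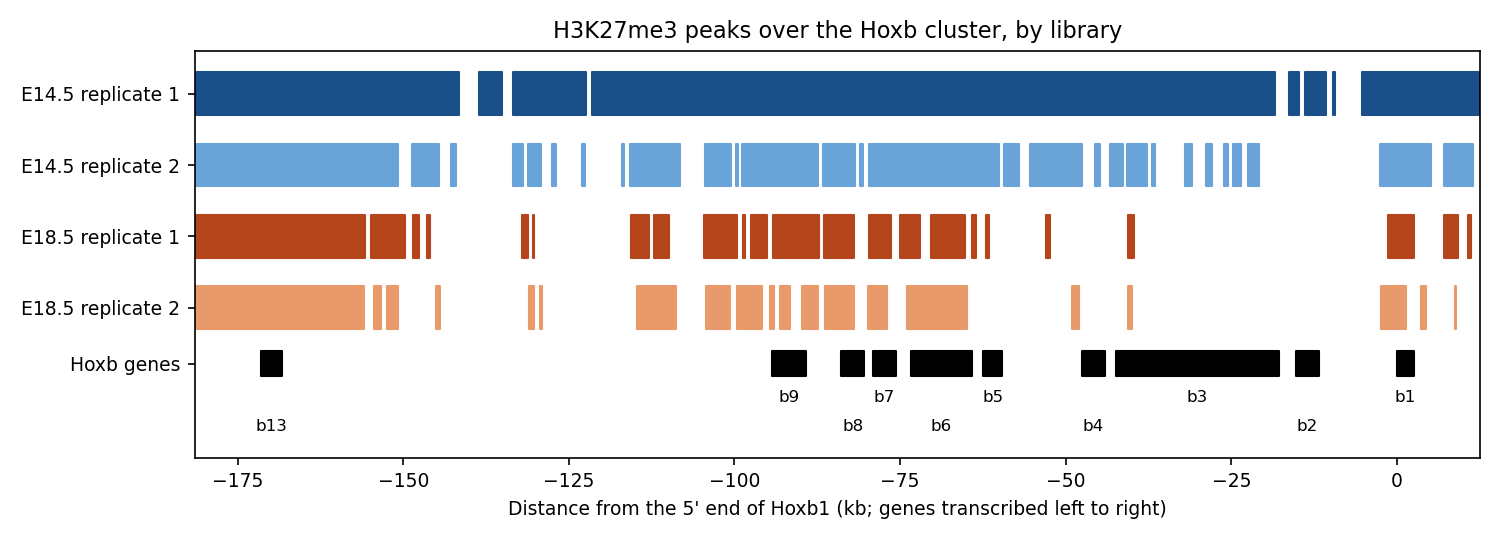
Peaks of each library over the Hoxb cluster, drawn to scale against the distance from the 5′ end of Hoxb1 in kb, with the 10 genes as black boxes (b13 stands for Hoxb13, and so on). The left end around Hoxb13 is filled in all 4 libraries, and the part from Hoxb4 to Hoxb2 is nearly empty in both E18.5 libraries.

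The domain was interrupted in every library, and the stages differed in the longest interruptions rather than in their number or median length. The median break was 1661 and 1582 bp long in the E14.5 libraries and 1445 and 2233 bp in the E18.5 libraries, which overlap. Between peaks there were 7 and 27 breaks in the E14.5 libraries and 22 and 19 in the E18.5 libraries, groups that overlap (exact permutation test, two-sided, p = 1). The longest break measured 4.08 and 18.2 kb in the E14.5 libraries against 38.3 and 37.6 kb later, which do not overlap (exact permutation test, two-sided, p = 0.33). Of the breaks, 6 in each E18.5 library reached 5 kb, against 0 and 3 at the earlier stage. The longest break fell in the same place in the E18.5 replicates, chr11:96326024-96364338 in the first and chr11:96325821-96363383 in the second, from within Hoxb3 across Hoxb2 to just before Hoxb1. In the second E14.5 replicate the longest break, chr11:96344977-96363136, also held Hoxb2, and the first replicate had only short breaks there. The breaks next to it at E18.5 held the 5′ ends of both Hoxb4 and Hoxb3 and measured 11.8 and 7.39 kb, and 2 further breaks of 13813 and 14547 bp in the first replicate and of 13467 and 14350 bp in the second lay in the gene-poor part between Hoxb13 and Hoxb9.

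The widest single peak of the stretch was 103 kb long in the first E14.5 replicate and ran from upstream of Hoxb9 into Hoxb3. In the other 3 libraries the widest peak was the one over Hoxb13, with 52.6 kb in the second E14.5 replicate and 46.0 and 42.7 kb at E18.5. These peaks ranked 2 and 4 by width in the E14.5 lists of 21546 and 16574 peaks, and 4 and 5 in the E18.5 lists of 10429 and 7107 peaks. Over each peak the deposited fold enrichment compares pileup with local background, and for the widest peaks it lay between the 97.7th and the 98.9th percentile of its own list.

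Described gene by gene, the start-site windows of Hoxb13 to Hoxb6 were covered to between 38.9% and 100% at E18.5, and those of Hoxb5 to Hoxb2 to between 0% and 18.2%. For each gene the length covered within 3000 bp of its start sites was measured, in a window that is longer where a gene has several start sites. Over the 10 genes together of a possible 84338 bp, 81561 and 60853 bp were covered in the E14.5 libraries and 34156 and 31454 bp in the E18.5 libraries (53.9% lower in the mean, exact permutation test, two-sided, p = 0.33). Of 21 annotated start sites, the base itself lay in a peak for 20 and 18 in the E14.5 libraries and for 10 and 12 in the E18.5 libraries, with 10 covered in all 4 libraries and 1, the second start site of Hoxb2, in none.

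**Figure D2:**
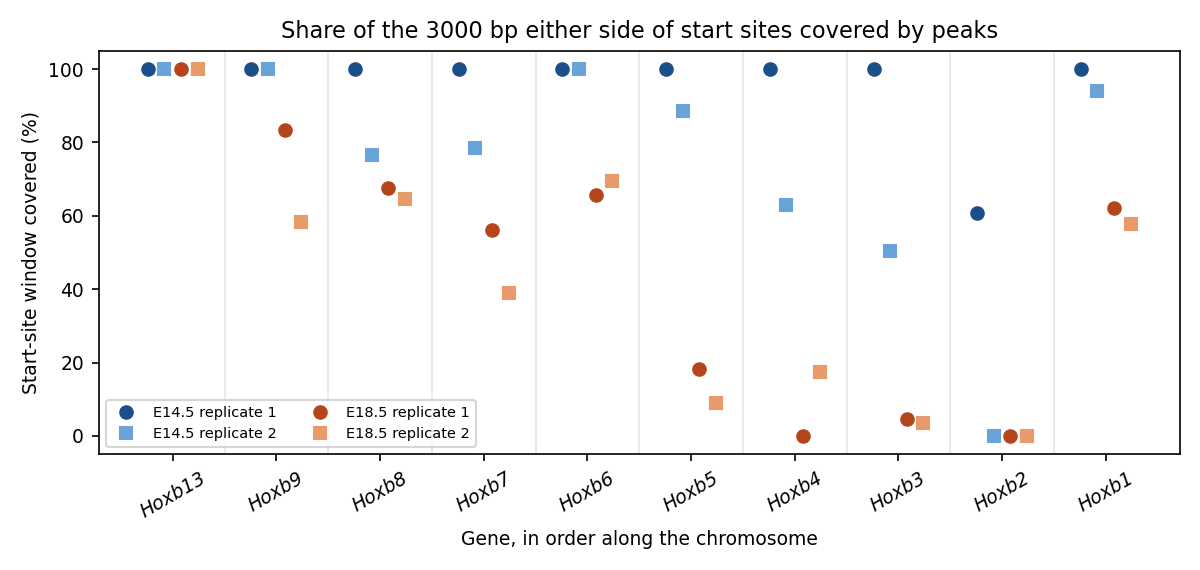
Share of each gene's start-site window (3000 bp either side) covered by peaks, in %, with 1 point per library and the genes in their order along the chromosome. Hoxb13 is at 100% in all 4 libraries, whereas both E18.5 points of Hoxb5, Hoxb4, Hoxb3 and Hoxb2 lie below 20%.

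Hoxb13, the most posterior gene, known for its role in the tail end of the spine and in the prostate, was covered over its whole window of 6001 bp in all 4 libraries. The peak over its 5′ end was 64.0 and 52.6 kb long in the E14.5 libraries, against 46.0 and 42.7 kb later, and it reached beyond the left edge of the stretch in every library. Both E18.5 peaks were shorter than both E14.5 peaks. Their right ends, at 96209932 and 96209813, nearly coincided, against 96224106 and 96214966 in the E14.5 libraries. Its fold enrichment was at the 99.5th, 98.9th, 98.6th and 97.7th percentile of the respective lists, in the order E14.5 replicates 1 and 2, then E18.5 replicates 1 and 2, an order kept for all sets of 4 values that follow.

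Hoxb9, which patterns the thoracic level, had 6067, 6067, 5055 and 3530 bp of 6067 bp covered. Its 5′ end lay in a break of 1.01 kb in the first E18.5 replicate and in a peak of only 651 bp in the second, so the covered bases at E18.5 were mostly those beside the start site. Hoxb8, a gene with a known role in haematopoietic and microglial cells, had 6821, 5232, 4615 and 4400 bp of 6821 bp covered. All 3 of its start sites were covered in every library, and the peak over its 5′ end was 4615 and 4400 bp long at E18.5, close to the 4830 bp of the second E14.5 replicate.

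Hoxb7 had 8093, 6352, 4541 and 3147 bp of 8093 bp covered, and Hoxb6, a gene active in lateral plate mesoderm, had 12002, 12002, 7880 and 8325 bp of 12002 bp. Both start sites of each gene were covered in all 4 libraries. In these 4 genes from Hoxb9 to Hoxb6 both E18.5 libraries lay below both E14.5 libraries, by 25.2% (Hoxb8) to 46.8% (Hoxb7) in the mean, and no start-site window was empty. Such an order of the stages held for 74.0% of all genes with a peak in all 4 libraries.

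Hoxb5, which takes part in placing the shoulder and in the development of the enteric nervous system, lay at the step in peak cover seen at E18.5 in the lists as called. Its window of 6177 bp held 6177 and 5465 bp of peak in the E14.5 libraries but 1126 and 549 bp in the E18.5 libraries, 85.6% lower in the mean. Neither of its 2 start sites was covered at E18.5, whereas the nearest start site of Hoxb6, 4165 bp upstream, was covered in both replicates. The E18.5 peaks over the 5′ end of Hoxb6 had a −log10 q of only 3.35 and 3.16. By fold they stood at the 54.1st and 45.5th percentile, below those of Hoxb7 (85.1st and 68.8th) and Hoxb8 (88.7th and 78.1st). With a −log10 q of at least 5, Hoxb9 to Hoxb5 was covered to 23.0% and 0% at E18.5, so the step depends on the threshold.

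Hoxb4, known for expanding blood stem cells, had 6001 and 3780 bp of 6001 bp covered in the E14.5 libraries, against 0 and 1042 bp later. The 1042 bp were a single peak upstream of the gene in the second replicate, over Mir10a, at the 13.4th percentile of its list by fold enrichment. Hoxb3, a gene of the hindbrain with 4 start sites spread over a long transcription unit, had 19562, 9832, 896 and 692 bp of 19562 bp covered, and none of its start sites was covered at E18.5. Hoxb2, which acts in the hindbrain segment that forms the facial motor neurons, had 4330 bp of 7107 bp covered in the first E14.5 replicate and 0 in the other 3 libraries. The stages therefore overlap for Hoxb2, and Hoxb2 alone among the members lacked a peak in one of the E14.5 libraries.

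Hoxb1, the most anterior gene, which sets the identity of that same hindbrain segment and responds directly to retinoic acid, was covered again. Its window of 6507 bp held 6507, 6122, 4042 and 3768 bp of peak, 38.2% lower at E18.5 in the mean. The peak over its 5′ end was 18714, 7821, 4042 and 3768 bp long and stood between the 82.5th and the 96.3rd percentile of its list. Hoxb1 was thus an island at E18.5, with 37.6 to 38.3 kb free of peaks on the side of Hoxb2.

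Read against all genes, more of the Hoxb genes had a peak at either stage. For members with a peak in all 4 libraries, the median difference in covered length was close to that of all such genes. A peak was present in both E14.5 libraries for 9 of 10 members, against 11.6% of all annotated genes, and in both E18.5 libraries for 8 of 10, against 7.11%. No member of the 9 had its window free of peaks in both E18.5 libraries, against a background of 25.1% of the genes marked in both libraries at E14.5. For Hoxb4 this rested on 1042 bp in 1 E18.5 library, and for Hoxb3 on 896 and 692 bp of a long window of 19562 bp. The covered length was lower in both E18.5 than in both E14.5 libraries for 8 of 10 members (all but Hoxb13 and Hoxb2), against 58.1% of genes with a peak in at least 1 library, and for 7 of the 8 members with a peak in all 4, against 74.0% of such genes. In these 8 members the median difference was 35.3% lower at E18.5, with a range from 0 to 94.6% lower, and over all 3871 such genes it was 36.0% lower. Hoxb4 and Hoxb2 are not among these 8, and were 89.3% and 100% lower in the mean. The members share 1 domain and some of their windows overlap, so they are not independent of each other.

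**Figure D3:**
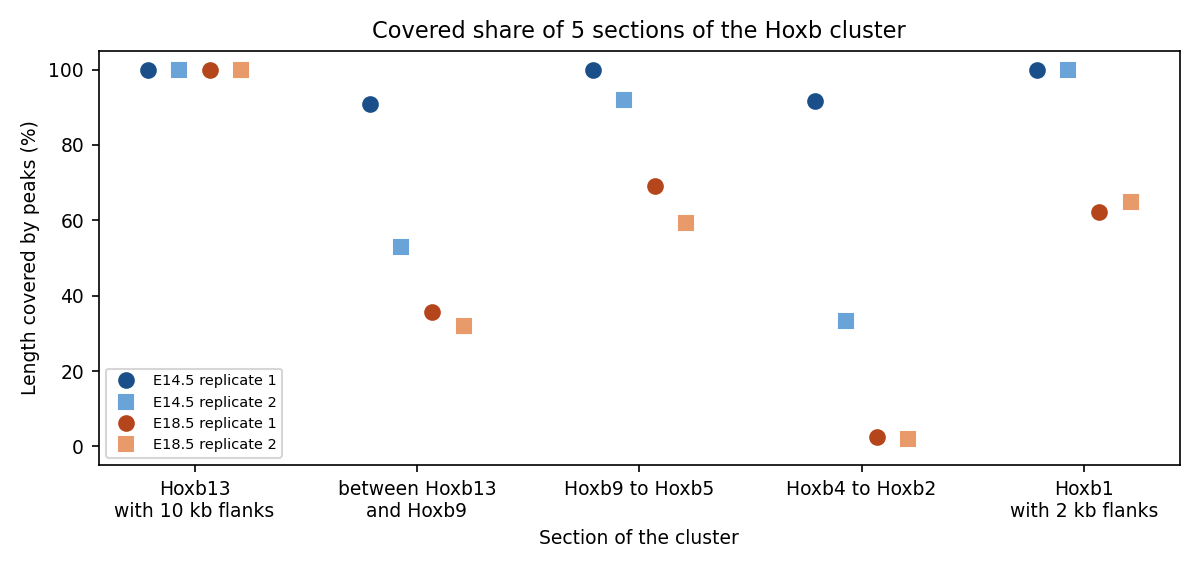
Share of 5 sections of the cluster covered by peaks, in %, with 1 point per library. At E18.5 the section from Hoxb4 to Hoxb2 stands at 2.51% and 1.94%, and the section from Hoxb9 to Hoxb5 at 69.0% and 59.4%.

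The same pattern was seen when sections of the cluster were measured. Their borders were chosen after the values had been seen, so that the values describe the domain and test nothing. Bases between the end of Hoxb5 and the start of Hoxb4 lie in no section. Nor do those right of Hoxb2 that are more than 2 kb from Hoxb1. The interval between the 5′ ends of Hoxb5 and Hoxb4 was covered to 100%, 84.3%, 6.58% and 6.98%. Hoxb5 itself is counted in Hoxb9 to Hoxb5. Hoxb13 with 10 kb on each side was 100% covered by 1 peak in every library. The 64.0 kb between it and Hoxb9 were covered to 91.0%, 52.8%, 35.8% and 32.0%. Hoxb9 to Hoxb5, 34.7 kb, were covered to 100%, 91.9%, 69.0% and 59.4%, by 1 and 4 peaks in the E14.5 libraries and by 7 and 6 peaks later, so that this part was both shorter and more broken at E18.5.

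Hoxb4 to Hoxb2, 35.7 kb, were covered to 91.6%, 33.2%, 2.51% and 1.94%, with 1 small peak left in each E18.5 library. The mean there was 60.2 points lower at E18.5, against 31.7 points lower in Hoxb9 to Hoxb5. The size of the difference from Hoxb4 to Hoxb2 rested on the first E14.5 replicate. Without that library it was 30.9 points, and without the second E14.5 replicate 89.4 points. In lists cut to an equal covered length by keeping the peaks with the highest −log10 q, this section was covered to 81.2% in the first E14.5 replicate, 0% in the second, and 0% and 1.94% at E18.5, so that the stages overlapped. Hoxb9 to Hoxb5 remained apart in the same lists, with 100% and 90.8% in the E14.5 libraries and 58.6% and 59.4% in the E18.5 libraries. With a −log10 q of at least 5, however, Hoxb9 to Hoxb5 was covered to 100%, 90.8%, 23.0% and 0% (83.9 points lower) and Hoxb4 to Hoxb2 to 81.2%, 0%, 0% and 0% (40.6 points lower), so that the order of the sections by size of difference was reversed. The covered share of Hoxb9 to Hoxb5 minus that of Hoxb4 to Hoxb2 was 8.38, 58.8, 66.5 and 57.5 points, so the stages overlapped. The second E14.5 replicate already had a difference of the size seen at E18.5.

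Between 5′ ends of neighbouring genes, the share covered at E18.5 was below 7% from the Hoxb5 to the Hoxb2 5′ end. It was also uneven on the posterior side, with 100% in both replicates left of Hoxb13, 46.7% and 43.6% from Hoxb13 to Hoxb9, 92.2% and 64.3% from Hoxb9 to Hoxb8, and 52.9% and 55.8% from Hoxb8 to Hoxb7. Hoxb6 to Hoxb5 was covered to 100%, 100%, 63.5% and 77.4%, and the next interval, Hoxb5 to Hoxb4, to 100%, 84.3%, 6.58% and 6.98%. Hoxb4 to Hoxb3 followed with 100%, 33.1%, 0% and 0%, and Hoxb3 to Hoxb2 with 92.3%, 37.4%, 3.29% and 2.54%. Gene bodies gave the same order, with Hoxb6 covered to 69.4% and 92.5% at E18.5, Hoxb5 to 13.6% and 0%, and Hoxb4 to 0% in both replicates.

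One spot inside Hoxb3 stood out as the sole peak that either E18.5 list held between the 5′ end of Hoxb4 and the peak over Hoxb1. It was singled out after its values were seen. The shared part, chr11:96325129-96325820, is 692 bp long, was covered in full in all 4 libraries, lies 1803 bp downstream of the 5′ end of the gene, and overlaps no annotated exon, so it is intronic. Its peak had a fold enrichment at the 3.51st percentile of the first E18.5 list and at the 68.8th of the second, so the strength of the spot was not the same in the replicates. It holds 24.6 CpG per kb, where the whole stretch holds 19.9. Its central 300 bases, chr11:96325325-96325624 on the plus strand of GRCm38, are shown because they are what was left of the domain in this part of the cluster, with each CpG in capitals.
Hoxb3 intronic spot: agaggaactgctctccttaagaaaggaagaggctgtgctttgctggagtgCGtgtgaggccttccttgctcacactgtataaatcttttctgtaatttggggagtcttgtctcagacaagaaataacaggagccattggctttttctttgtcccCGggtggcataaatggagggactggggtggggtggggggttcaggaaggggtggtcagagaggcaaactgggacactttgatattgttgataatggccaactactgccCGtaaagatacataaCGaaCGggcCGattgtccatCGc

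The promoters of Hoxb8, Hoxb4 and Hoxb1 show both outcomes, covered in all 4 libraries or at E14.5 only, at the level of sequence. Sequences of 250 bases before the start were taken from RefSeq (GRCm38.p6), where 3 of the 10 members were matched, and those of Hoxb2, Hoxb3, Hoxb5, Hoxb6, Hoxb7, Hoxb9 and Hoxb13 are not shown. Each is on the plus strand with every CpG in capitals, at chr11:96281655-96281904 for Hoxb8, chr11:96318017-96318266 for Hoxb4 and chr11:96365508-96365757 for Hoxb1.
Hoxb8 promoter: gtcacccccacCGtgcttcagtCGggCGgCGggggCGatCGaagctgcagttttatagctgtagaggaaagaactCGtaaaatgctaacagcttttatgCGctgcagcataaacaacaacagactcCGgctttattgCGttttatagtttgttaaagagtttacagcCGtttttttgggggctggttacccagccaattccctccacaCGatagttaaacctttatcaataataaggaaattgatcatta
Hoxb4 promoter: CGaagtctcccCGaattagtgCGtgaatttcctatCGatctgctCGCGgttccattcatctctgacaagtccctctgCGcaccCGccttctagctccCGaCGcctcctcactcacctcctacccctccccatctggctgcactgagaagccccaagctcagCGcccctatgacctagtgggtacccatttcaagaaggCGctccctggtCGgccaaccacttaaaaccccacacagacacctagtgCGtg
Hoxb1 promoter: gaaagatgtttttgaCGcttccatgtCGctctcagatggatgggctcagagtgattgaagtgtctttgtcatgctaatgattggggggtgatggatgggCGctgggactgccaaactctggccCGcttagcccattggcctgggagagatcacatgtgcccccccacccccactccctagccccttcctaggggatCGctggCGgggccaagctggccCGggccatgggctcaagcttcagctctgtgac

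All 250 bases of the Hoxb8 and of the Hoxb1 promoter were covered in all 4 libraries, whereas those of Hoxb4 were covered in full in both E14.5 libraries and not at all at E18.5. CpG content did not separate them. The Hoxb4 promoter has 14 CpG, more than the 12 of Hoxb8 and the 7 of Hoxb1, and the median over 32851 promoters of the same length is 6. Its GC content of 58% is near the 59.2% of Hoxb1, and that of Hoxb8 is 44.4%. The letters TGATNNAT, a form of the site that Pbx and Hox proteins bind together, were looked for on both strands and were found once each in the Hoxb8 and Hoxb1 promoters and not in that of Hoxb4. They occur in 7.68% of all promoters of this length, and a match is a description of the letters only.

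**Figure D4:**
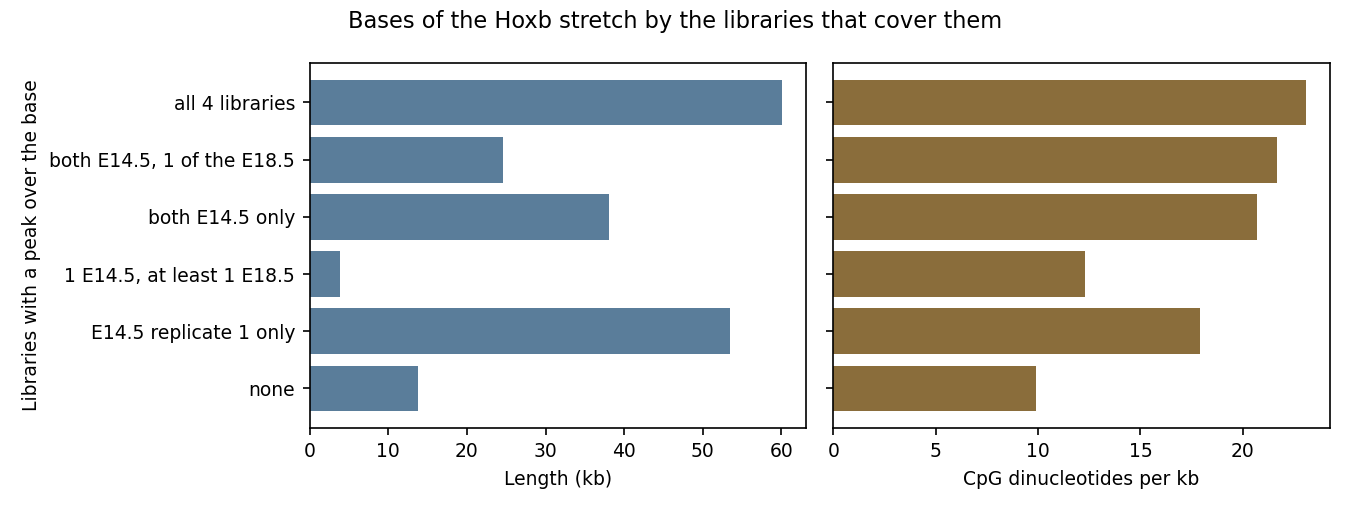
Bases of the Hoxb stretch grouped by the libraries whose peaks cover them, with the length of each group in kb on the left and its CpG dinucleotides per kb on the right. Bases covered in all 4 libraries hold 23.1 CpG per kb and bases covered in none hold 9.89.

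Every base covered at E18.5, and every base covered in the second E14.5 replicate, lay within the peaks of the first E14.5 replicate, so that no part of the stretch was covered at E18.5 alone. That library covered 92.9% of the stretch. Over the whole lists it held 93.5% and 96.1% of the covered length of the E18.5 replicates, and 88.1% of that of the second E14.5 replicate. Such containment is therefore not particular to this stretch. Bases covered in all 4 libraries came to 60.1 kb, 31.0% of the stretch, in 20 segments with a median of 1768 bp. The longest segment, 25.5 kb, was at Hoxb13, and the others with the 5′ end of a gene held Hoxb8, Hoxb7, Hoxb6 and Hoxb1. A further 38.1 kb were covered in both E14.5 libraries and in neither E18.5 library, and 53.4 kb, 27.5% of the stretch, in the first E14.5 replicate alone.

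CpG density is given as a description over neighbouring bases of 1 region. It was 23.1 per kb in bases covered in all 4 libraries, 20.7 in those covered in both E14.5 libraries only, 17.9 in those of the first E14.5 replicate alone and 9.89 in the 13.8 kb covered in none. The order was not strict, since the 3.91 kb covered in 1 E14.5 library and at least 1 E18.5 library held 12.3 per kb. GC content was 50.2% in the bases covered in all 4 and 43.3% in those covered in none.

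The replicates of a stage shared 68.2% of their combined covered length in the stretch at E14.5 and 67.8% at E18.5. Such shares depend on how much of the stretch is covered, and were not compared with chance. Across stages the second E14.5 replicate shared 59.8% and 56.2% with the E18.5 replicates, and the first shared 43.3% and 39.3%. The second E14.5 replicate thus stood between the first and the E18.5 libraries in the extent of its peaks, which bears on every mean at E14.5 given here.

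No other protein-coding gene starts in the stretch. The 9 further genes there are 3 antisense RNAs, 1 lincRNA, 2 microRNAs, 2 miscellaneous RNAs and 1 processed pseudogene, and the microRNAs sit on either side of the step. Mir196a-1, upstream of Hoxb9, at chr11:96265164-96265265, had 6001, 4739, 4301 and 4926 bp of its 6001 bp window covered. Mir10a, just upstream of Hoxb4, at chr11:96317165-96317274, had 6001, 4124, 0 and 1042 bp covered, so that its window was free of peaks in 1 of the E18.5 libraries. At E18.5 the hairpin itself was covered in the first replicate only for Mir196a-1 and in the second replicate only for Mir10a. The mature sequences from RefSeq are given with the seed, bases 2 to 8, in capitals, and no seed is shared among them. miR-196 is known to cleave the Hoxb8 transcript.
mmu-miR-196a-5p: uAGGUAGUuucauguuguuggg
mmu-miR-196a-1-3p: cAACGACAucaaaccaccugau
mmu-miR-10a-5p: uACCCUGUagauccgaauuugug
mmu-miR-10a-3p: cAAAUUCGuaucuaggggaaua

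The start sites of the antisense genes lay in the part with few or no peaks at E18.5. Hoxb3os had 7521, 54, 0 and 0 bp of 12002 bp covered around its start sites, and Gm11536, inside Hoxb3 on the opposite strand, had 6001, 3657, 0 and 0 bp of 6001 bp. Hoxb5os, which starts beside Hoxb5 and runs back across Hoxb6, had 7830, 5909, 514 and 0 bp of 7830 bp covered. The lincRNA Gm53, on the far side of the step between Hoxb13 and Hoxb9, had 13429, 9239, 8205 and 7761 bp of 13429 bp covered. In each of these 4 genes both E18.5 libraries lay below both E14.5 libraries, against 58.1% of all genes with a peak in at least 1 library. For Hoxb3os this rested on 54 bp in the second E14.5 replicate. It also held for Mir10a and the pseudogene Gm11539. It did not hold for Mir196a-1, or for the miscellaneous RNAs Gm27898 and Gm27605, covered over 6001 bp in all 4 libraries.

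**Figure D5:**
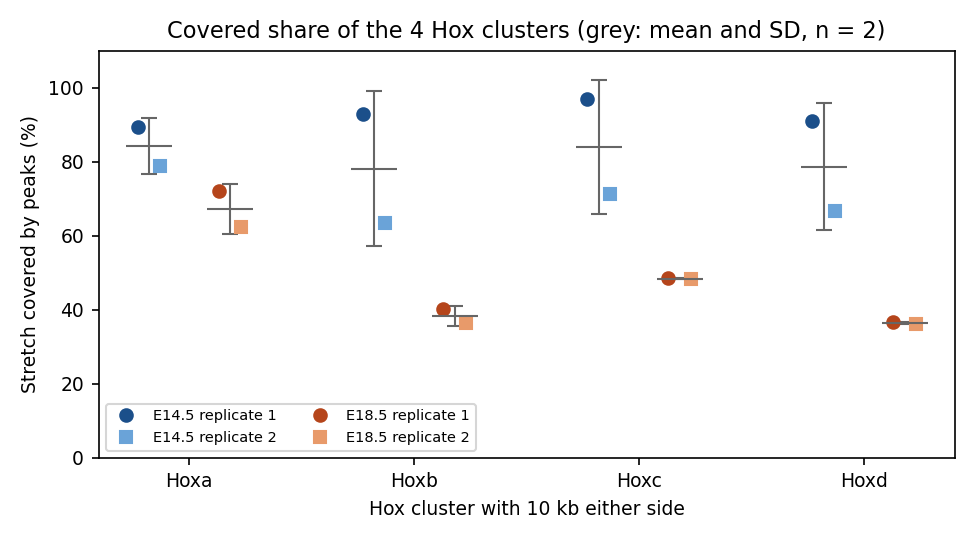
Share of each Hox cluster, with 10 kb on either side, covered by peaks, in %, with 1 point per library and the mean and SD of the 2 replicates of a stage in grey (SD bars may pass 100%). Hoxb and Hoxd stand near 38% and 36% at E18.5, Hoxc near 48% and Hoxa near 67%.

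The Hoxb cluster was compared with Hoxa, Hoxc and Hoxd, each measured with 10 kb added on both sides. At E14.5 the mean covered share was 78.1 ± 20.9% for Hoxb, 84.2 ± 7.55% for Hoxa, 84.0 ± 18.2% for Hoxc and 78.7 ± 17.1% for Hoxd (SD, n = 2 each). At E18.5 the shares were 38.4 ± 2.66% for Hoxb, 67.3 ± 6.80% for Hoxa, 48.4 ± 0.139% for Hoxc and 36.4 ± 0.324% for Hoxd. Hoxb minus the mean of the other clusters was 0.482 and -8.82 points in the E14.5 libraries and -12.2 and -12.5 points in the E18.5 libraries. The mean difference was 8.18 points lower at E18.5 (exact permutation test, two-sided, p = 0.33), with both E18.5 libraries below both E14.5 libraries. With lists of equal number of peaks this was no longer so, since the values were -3.54 and -15.2 points in the E14.5 libraries and -12.6 and -12.5 points in the E18.5 libraries. Nor was it so without the added 10 kb, where they were -2.25 and -13.9 against -14.2 and -13.8 points.

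At E18.5 Hoxb had 22 and 19 breaks, Hoxa 12 and 15, Hoxc 2 and 1 and Hoxd 3 and 3, in stretches of 193.9, 125.3, 135.8 and 116.8 kb. Per 100 kb these were 11.3 and 9.80 in Hoxb and 9.58 and 12.0 in Hoxa, which overlap, against 1.47 and 0.736 in Hoxc and 2.57 and 2.57 in Hoxd, and no test was made of this difference. The longest E18.5 break was 53249 and 51323 bp in Hoxd, longer than in Hoxb, and 7867 and 7480 bp in Hoxa. Since only uncovered bases between peaks count as breaks, uncovered ends of a stretch are left out. Hoxc had a longest E18.5 break of 2955 and 939 bp, although peaks covered only 48.5% and 48.3% of its stretch.

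The list of other genes of the Hox pathway held 41 genes, namely the 29 Hox genes of the other clusters, 9 cofactors of the TALE class that bind DNA with Hox proteins, and the 3 Cdx genes, which switch on posterior Hox genes. In all, 33 were marked in both E14.5 libraries (background 11.6%) and 27 in both E18.5 libraries (background 7.11%). Of the 35 with a peak in any library, 20 had less covered length in both E18.5 than in both E14.5 libraries, a share near the background of 58.1%, and none had more. Of the 29 Hox genes, 29 carried a peak in both libraries at E14.5 and 23 in both at E18.5. The other 6, Hoxc4, Hoxc6, Hoxc8, Hoxd3, Hoxd4 and Hoxd8, had none in either E18.5 library, where the background is 25.1%. Hoxd3, for instance, had 24757, 19597, 0 and 0 bp covered, and Hoxd4, the counterpart of Hoxb4 in its cluster, 17098, 5919, 0 and 0 bp. As at Hoxb13, 6001 bp were covered in all 4 libraries at Hoxc11, Hoxc12, Hoxc13, Hoxd10, Hoxd12 and Hoxd13. Hoxd1, the most anterior gene of its cluster, had 6001, 5794, 2572 and 1624 bp covered. Neither a covered posterior end nor a covered anterior gene at E18.5 was thus particular to Hoxb.

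The cofactors were mostly unmarked. Of the 9, Pknox2 had a peak in all 4 libraries, with 13203, 12210, 11873 and 10571 bp covered, whereas Meis3 had 687 bp in the second E14.5 replicate alone and Pbx4 368 bp in the first alone. Meis1, Meis2 and Pknox1 had no peak in any library. Cdx2 was covered over its whole window of 6001 bp in all 4 libraries, as Hoxb13 was. Cdx1 had 4049, 3770, 2595 and 2202 bp covered and Cdx4 3821, 6001, 1870 and 1661 bp, so that both E18.5 libraries lay below both E14.5 libraries for each. The background for this order is 74.0% of genes with a peak in all 4 libraries.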

How the data were processed

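H3K27me3 ChIP-seq peak lists of 4 libraries were analysed, grouped by the stage in their labels. The authors aligned reads to mm10 with Bowtie2 2.3.5.1, used SAMtools 1.9, and called broad peaks per library with MACS2 2.2.7.1 at a q-value threshold of 0.01 without pooling replicates. The control of the call is not given in the sources used here, and it is unclear whether the stated subsampling of E18.5 libraries covers these. The labels name sonication, an Ion Torrent kit and DMEM, whereas the methods name an enzymatic kit, an Illumina platform and another medium. The deposited columns hold a fold enrichment (a ratio averaged over the peak), a −log10 p-value, a −log10 q-value and a score. The fold placed a peak within its own list, the −log10 q-value filtered peaks and, with the −log10 p-value for ties, chose those kept in equal lists, and the score was not used. The peak lists hold no read counts, so depth and the precision of a single peak are unknown.

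Covered bases, breaks of at least 1 bp and windows of 3000 bp around GENCODE vM21 start sites (same build) were counted with Python 3.11.15, numpy 2.4.6 and pandas 2.3.3, and checked on simulated peak lists. The stages were set against each other with a two-sided exact permutation test, whose smallest p is 0.33, and p-values measure only the spread between these libraries. The members and lists were chosen with earlier results of these data known. Genes other than members were named by list, and those of the other clusters where both E14.5 libraries had a peak and neither E18.5 library did. Hoxd1 and the genes of the other clusters with 6001 bp covered in all 4 libraries were named after their values were seen. Alternatives were other −log10 q-value minimums (3 and 5), a width minimum of 1000 bp, joining of breaks up to 1000 or 3000 bp, other windows and flanks, lists of equal number (7107 peaks) or equal covered length (14.3 Mb), a replicate block, and leaving out each library. The equal covered length and the section values were added after seeing the data. Some genes of the lists are not reported here by name.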

Additional observations from a re-analysis of the deposited data

How the results depend on the processing

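Of 123 recomputed values, 116 kept the direction and, for a count, stayed within 1.5 times the value reported. Some of these could not change, such as the count of genes marked at E14.5 when an E18.5 library was left out. The replicate block likewise could not change the mean difference in breaks or in Hoxb minus the other clusters. The covered length of the stretch was 39.4% to 71.4% lower at E18.5 in all 14 alternatives, and the start-site length 46.1% to 77.3% lower in all 13. With a −log10 q of at least 5 the mean number of breaks was 2 lower at E18.5 (-2, against 3.50 higher as reported), and with a library left out the difference ran from -6.50 (without E14.5 replicate 1) to 13.5 (without E14.5 replicate 2), 2 and 5 without E18.5 replicates 1 and 2. The share of all covered length, 22.1% higher at E18.5 as reported, was -22.8% with a −log10 q of at least 5, -2.34% in lists of equal number and -42.9% in lists of equal covered length, and 7.80% to 36.3% with a library left out. Windows of 1000 bp left 5 Hoxb genes lower in both E18.5 libraries instead of 8, and a −log10 q of at least 5 left 2 genes marked in both libraries at E18.5 instead of 8. The cause of these differences was not tested. The stage difference (E18.5 minus E14.5) in Hoxb minus the other clusters ranged from -15.4 to -3.18 points. The stages overlapped in lists of equal number and without flanks. The stage difference was -3.53 points without E14.5 replicate 1 and -12.8 without E14.5 replicate 2.

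Whether replicate numbers pair the samples is not given. The correlation of replicate differences was 0.190 over 3871 genes, but with only 2 pairs it cannot decide this. With the replicate block the differences were -49.5% for covered length, -53.2% for start sites, 3.50 breaks, 21.6% for the share and -8.18 points for Hoxb minus the other clusters, where the smallest exact p is 0.5. Unknown depth limits every absence of a peak, since an uncalled stretch can lie just under a list's own threshold.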
